A study of Mus musculus with 2 samples.

Results

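The genes described here load peptides onto MHC class II molecules and present them to T cells. They were taken by symbol, as H2-Aa, H2-Ab1, H2-Eb1, H2-DMa, H2-DMb1, H2-Oa, H2-Ob, Cd74 and Ciita. Of these 9 members, 8 had values among the 20002 genes of the table, and H2-Oa was not analysed here. RNA-seq was performed on whole left kidneys of mice stated to be C57BL/6J, with 1 control library and 1 library labelled CKO. The label stands for a proximal tubule-specific conditional knockout of Reg-2 (Regnase-2, the RNase gene Zc3h12b), whereas the methods describe AAV9, an adeno-associated virus, carrying shRNA against Regnase-2 and given by tail vein at 11 weeks of age. The methods place the harvest at 14 weeks of age for RNA-seq and at 16 weeks in the account of the virus. They describe the control virus as carrying control shRNA in one place and as empty in another. Sex and the number of mice in each library were not given in the sources used here.

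The control library held 38851231 reads and the CKO library 43588721, after subtraction of a constant from each column. That the deposited values are reads plus this constant was inferred from their lowest values, 35 and 51, and every read number in the text rests on it. With 1 library per group no difference has a replicate check, and no test between groups was made. Each interval in the text is a 95% Clopper-Pearson interval and covers counting error only. The intervals too rest on the values being reads, whereas the deposited values are called normalized counts. Zc3h12b itself had 47 reads in control and 59 in CKO. Its fold, after the CKO reads were multiplied by 0.667 to set the median gene ratio to 1, was 0.837 (0.561 to 1.26), so the targeted gene does not check the labels, and its log2 ratio changed sign from -0.25 to 0.16 with equal library totals. The treated library is therefore called the library labelled CKO, or CKO for short. Both libraries carried the kidney's own transcripts, and the 10 proximal tubule markers summed to 604904 reads in control and 489109 in CKO.

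MHC class II molecules are dimers of an alpha and a beta chain that display peptides from endosomes on the surface of dendritic cells, macrophages and B cells, where CD4+ T cells read them. The invariant chain, encoded by Cd74, holds the new dimer and blocks its groove until proteases trim it to the fragment CLIP. The H2-M dimer then exchanges CLIP for peptide, and the H2-O dimer restrains H2-M. The transactivator Ciita does not bind DNA itself. It is recruited by RFX, CREB and NF-Y factors on the X and Y boxes of class II promoters and switches the family on together. Kidney holds resident macrophages and dendritic cells that carry class II, and tubular epithelium can gain it under interferon-gamma.

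The short promoter stretches below are shown because the members are known to share these boxes and most of them had similar folds. Among the genes shown, H2-Ob (1.95-fold) lay below these folds and H2-DMb2 (13.9-fold), which is not a member, above them. The stretches come from the RefSeq promoter windows (GRCm38.p6), each covering 250 bases before to 50 bases after a start site. Windows were matched for 5 of the 8 measured members (H2-Aa, H2-Eb1, H2-Ob, H2-DMa and H2-DMb1) and for the paralog H2-DMb2. No window was used for H2-Ab1, Cd74 or Ciita. Capitals mark GCAAC, a core of the X box bound by RFX, and ATTGG, which is CCAAT of the NF-Y site read on the other strand. Each stretch is written 5′ to 3′ on the strand of its gene.
H2-Aa: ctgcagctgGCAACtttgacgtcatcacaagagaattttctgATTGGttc
H2-Eb1: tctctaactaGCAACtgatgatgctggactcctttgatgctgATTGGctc
H2-Ob: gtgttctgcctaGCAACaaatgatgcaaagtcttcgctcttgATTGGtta
H2-DMb2: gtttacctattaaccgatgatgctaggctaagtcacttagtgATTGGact

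The H2-Aa stretch lies at chr17:34287864-34287913 on the minus strand, the H2-Eb1 stretch at chr17:34305766-34305815 and the H2-Ob stretch at chr17:34238806-34238855, both on the plus strand. These 3 lie upstream of their genes and outside every annotated exon of GENCODE M21. The H2-DMb2 stretch, at chr17:34145117-34145166 on the plus strand, lies in an intron of a longer annotated H2-DMb2 transcript. ATTGG began 48 bases before the start site in H2-Aa, 59 in H2-Eb1, 57 in H2-Ob and 90 in H2-DMb2. GCAAC preceded it by 28 bases in H2-Aa, 27 in H2-Eb1 and 25 in H2-Ob, and H2-DMb2 held no GCAAC in its window. The H2-DMb1 window held ATTGG 61 bases before the start site, without GCAAC. H2-DMa had 2 windows, 1 with GCAAC on either strand and the other with CCAAT on either strand.

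Searched on both strands, CCAAT occurred in 37.4% of the 32851 promoter windows, GCAAC in 35.2% and TGACG, a core of the CREB site, in 20.8%. Among the class II windows TGACG was found in H2-Aa alone. GCAAC followed by ATTGG with 20 to 35 bases between them, a spacing set after the class II windows were read, occurred in 261 windows, 0.79% of all. A match says only that these letters are present.

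The 3 classical chains were higher in the library labelled CKO by similar folds. H2-Aa, the alpha chain of I-A (chr17:34282744-34287823, gene ID 14960), had 897 reads in control and 9142 in CKO. After scaling this was 6.79-fold higher (6.34 to 7.28). H2-Ab1, the beta chain of I-A (chr17:34257689-34269419), had 958 and 7667 reads, 5.34-fold higher (4.99 to 5.71). H2-Eb1, the beta chain of I-E (chr17:34305867-34316674), had 899 and 8198 reads, 6.08-fold higher (5.67 to 6.52). The intervals of H2-Aa and H2-Ab1 did not overlap, and that of H2-Eb1 overlapped both.

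Cd74, the invariant chain, supplied the most reads of any member. It had 2610 reads in control and 23956 in CKO, 6.12-fold higher (5.88 to 6.37). Its share of the summed class II reads was 45.4% in control and 46.0% in CKO. Ciita, the transactivator (chr16:10480059-10528418), had 120 reads in control and 945 in CKO. Its fold of 5.25 (4.34 to 6.40) overlapped those of H2-Aa, H2-Ab1, H2-Eb1 and Cd74.

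The peptide editors were less uniform. H2-DMa, the alpha chain of H2-M (chr17:34119541-34139101), had 164 and 1150 reads, 4.67-fold higher (3.97 to 5.54). H2-DMb1, its beta chain (chr17:34153072-34160230), had 91 and 1033 reads, 7.57-fold higher (6.10 to 9.48), and the intervals of the 2 chains did not overlap. H2-Ob, the beta chain of H2-O (chr17:34238903-34254414), is the member with the fewest reads, 14 in control and 41 in CKO. Its fold of 1.95 (1.04 to 3.88) lay below the interval of every other measured member. H2-O is best known from B cells and some dendritic cells.

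**Figure D1:**
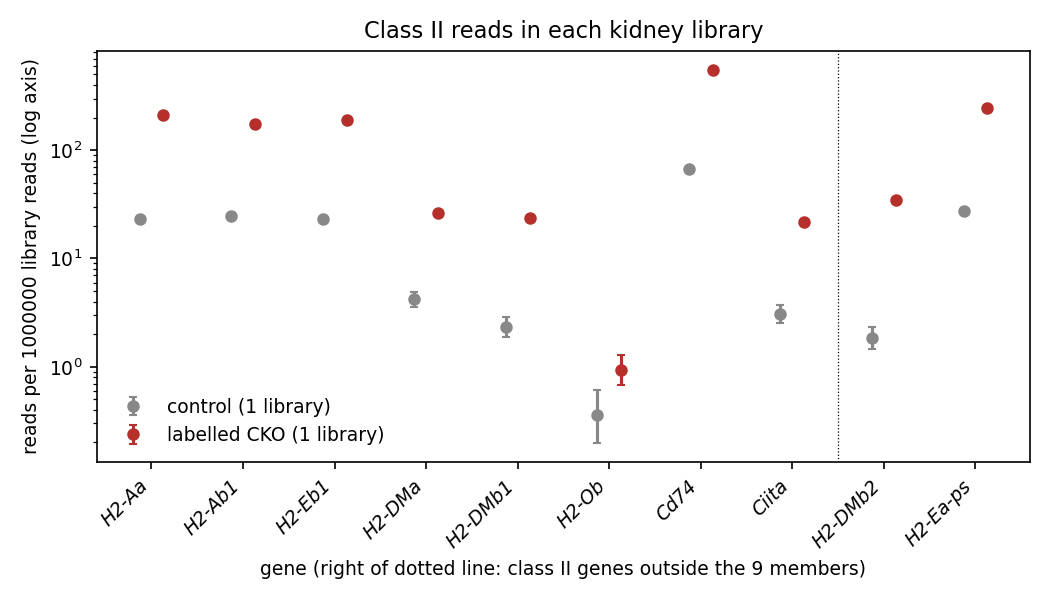
Reads of each class II gene per 1000000 library reads (log axis) in the control library (grey) and the library labelled CKO (red), without scaling by the median gene ratio; bars are 95% Clopper-Pearson intervals for counting error only. Cd74 is highest in both libraries (67.2 and 549.6 reads per 1000000) and H2-Ob lowest (0.360 and 0.941).

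All 8 measured members passed the minimum of 10 scaled reads in 1 library. Of these, 7 passed 2-fold in the direction of CKO, the exception being H2-Ob, against 13.4% of the 17469 genes that passed the minimum (2334 genes). The same 7 were at least 4-fold higher, also under each of the 8 changes of scaling, floor and pseudocount, against 4.29% of genes. No member was 2-fold lower, against 5.35% of genes. The median log2 ratio was 2.51 over the 8 members and 0.022 over all genes tested. H2-DMb1 ranked 211 among the 17469 genes by log2 ratio, H2-Aa 260, Cd74 325, H2-Eb1 332, H2-Ab1 443, Ciita 458, H2-DMa 565 and H2-Ob 2575.

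Of all genes past 2-fold, 71.4% were higher in the library labelled CKO. With equal library totals this split was 89.9%, the share of genes at least 2-fold higher was 21.9%, and H2-Ob joined the other members past 2-fold. That scaling moved the median of all genes tested from 0.022 to 0.44 on the log2 scale, and the values as deposited moved it to 0.57. Relative to the median of all genes, the members' median log2 ratio was 2.49 in the main scaling, 2.48 with equal totals and 2.46 in the values as deposited.

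**Figure D2:**
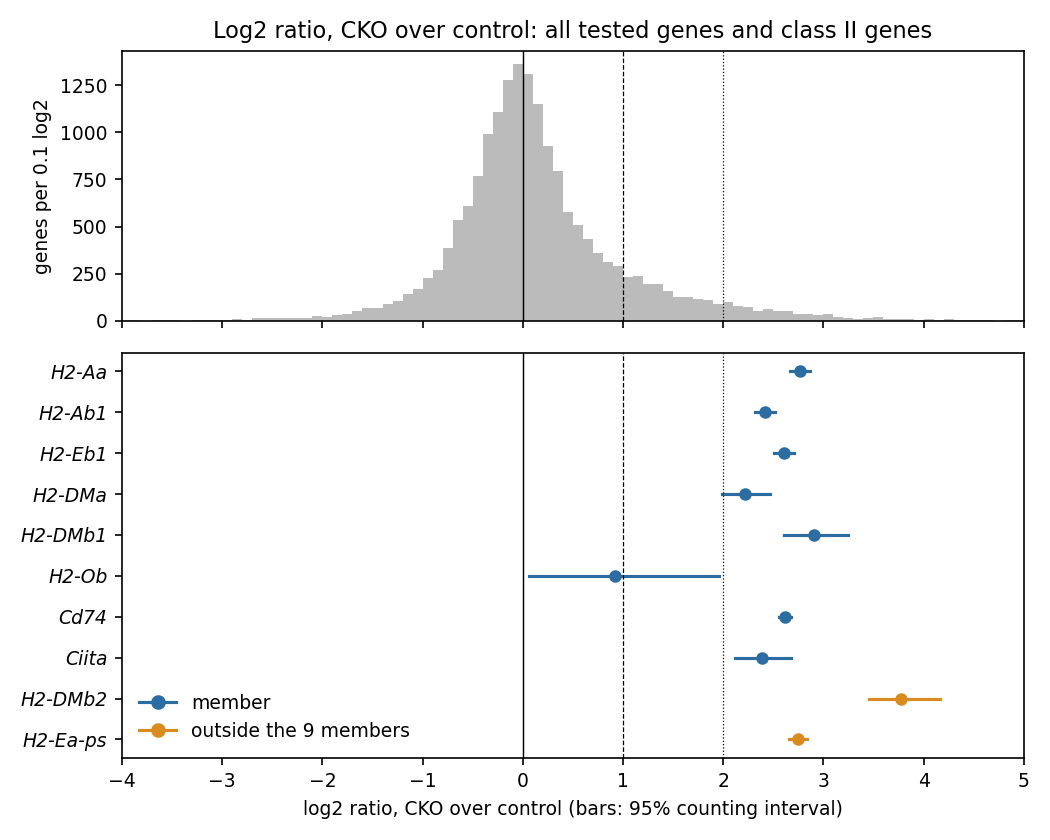
Upper panel, number of genes per 0.1 log2 unit against the log2 ratio of CKO over control for the 17469 genes tested (ratios outside the axis are not drawn); lower panel, log2 ratio of each class II gene with its 95% counting interval. Dashed and dotted lines mark 2-fold and 4-fold; the 7 members other than H2-Ob lie past 4-fold, and H2-DMb2 lies farthest at 3.78.

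Summed over the 8 members, class II took 5753 reads of the control library, 0.0148% of its reads (0.0144% to 0.0152%). In the library labelled CKO it took 52132 reads, 0.120% (0.119% to 0.121%). Comparing these shares across the libraries amounts to setting equal library totals. After the main scaling the summed reads were 6.04-fold higher in CKO. In bulk RNA, more cells of a type and more RNA per cell cannot be told apart.

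Shares of reads between a pair of genes, compared across the libraries, need no scaling. H2-Aa made up 48.4% (46.1% to 50.7%) of the reads of the I-A chain pair H2-Aa and H2-Ab1 in control and 54.4% (53.6% to 55.1%) in CKO. H2-DMa made up 64.3% (58.1% to 70.2%) of the reads of the H2-M pair H2-DMa and H2-DMb1 in control and 52.7% (50.6% to 54.8%) in CKO. In both dimers the intervals of the libraries did not overlap, with the shift toward the alpha chain in I-A and toward the beta chain in H2-M. Of the reads of H2-Aa and H2-Ob together, H2-Ob made up 1.54% (0.843% to 2.56%) in control and 0.446% (0.321% to 0.605%) in CKO, which again did not overlap. Ciita with H2-Aa gave 11.8% (9.88% to 13.9%) and 9.37% (8.81% to 9.95%), intervals that overlapped. Those of H2-Eb1 and H2-DMb1 with H2-Aa overlapped too. Cd74 with H2-Aa gave 74.42% (72.94% to 75.86%) in control and 72.38% (71.89% to 72.86%) in CKO. H2-DMa with H2-Aa gave 15.5% (13.3% to 17.8%) and 11.2% (10.6% to 11.8%). Neither the intervals of Cd74 nor those of H2-DMa overlapped.

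Levels of different genes were compared per kb within a library, relative to H2-Aa. With the union of annotated exons as length, Cd74 stood at 658% of H2-Aa in control and 593% in CKO. H2-Ab1 stood at 158% and 124%, and H2-Eb1 at 196% and 175%. The order of the classical chains depended on the length used, because the union of exons of H2-Aa (3798 bases) is far longer than its longest coding transcript (1128 bases). With the longest coding transcript, a length chosen after the data were seen, H2-Ab1 was at 99.4% and 78.1% of H2-Aa and H2-Eb1 at 67.7% and 60.6%. Cd74 led at 233% and 210%. The H2-M chains were lower on this length, H2-DMa at 10.3% and 7.08% and H2-DMb1 at 8.15% and 9.08%. Ciita followed at 2.51% and 1.94%, and H2-Ob was lowest at 0.659% and 0.189%. The H2-Ob level depended on the floor, as on the union of exons it was 1.10% and 0.317%, but 3.64% and 0.699% when no floor was subtracted. Both lengths placed the H2-M chains below the classical chains, Ciita below these and H2-Ob last.

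**Figure D3:**
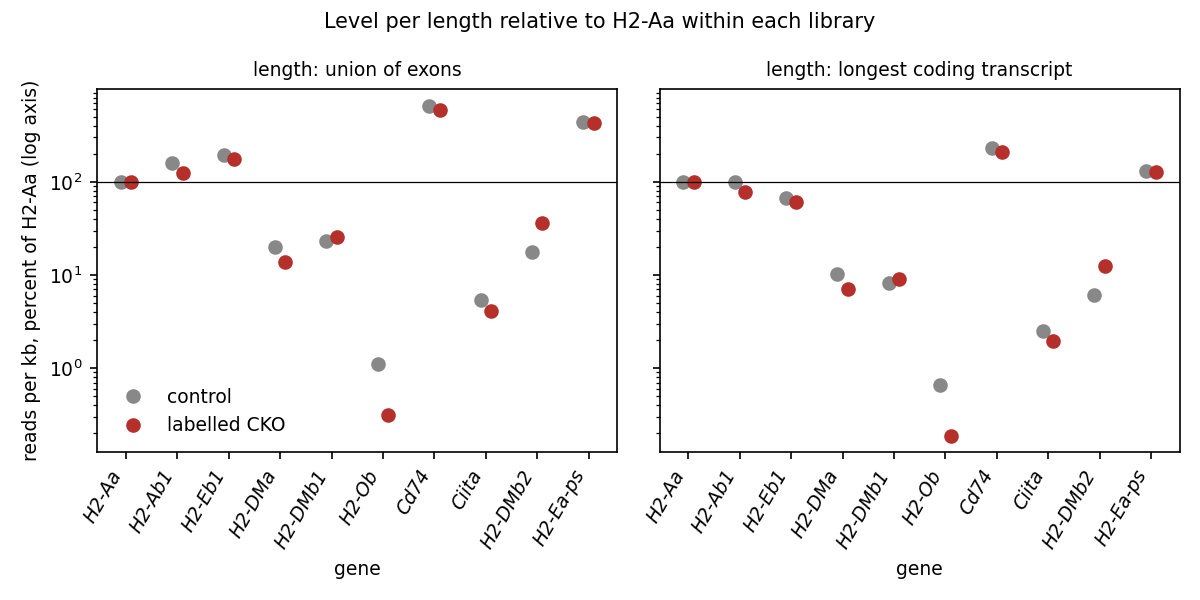
Reads per kb of each class II gene as percent of H2-Aa in the same library (log axis), with the union of exons (left) or the longest coding transcript (right) as length; grey is the control library and red the library labelled CKO. Cd74 is highest and H2-Ob lowest on both lengths, while H2-Ab1 and H2-Eb1 lie above H2-Aa on the left and below it on the right.

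Class II genes outside the 9 members were also higher in CKO. H2-DMb2, a second beta chain gene of H2-M (chr17:34143307-34151555), had 72 reads in control and 1502 in CKO. Its fold of 13.9 (11.0 to 17.9) lay above the interval of every member. H2-DMb1 and H2-DMb2 are close paralogs, and 13.7% of the 1305 windows of 100 bases in the longest coding transcript of H2-DMb1 also occurred in H2-DMb2, so their reads are uncertain to that extent. None of the windows of the other members occurred in another gene's transcripts. H2-DMb1 made up 55.8% (47.9% to 63.6%) of the reads of this pair in control and 40.8% (38.8% to 42.7%) in CKO.

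H2-Ea-ps, the I-E alpha gene annotated as a polymorphic pseudogene (chr17:34341959-34344645), had 1069 and 10750 reads, 6.70-fold higher (6.29 to 7.15). C57BL/6 mice are known to lack the I-E alpha chain and, through a deletion over the promoter and first exon of its gene, the mRNA as well. Here the reads exceeded those of H2-Aa in both libraries, which goes against the stated strain, and the strain was not checked from the reads. The share of H2-Aa in the reads of H2-Aa and H2-Ea-ps was 45.6% (43.4% to 47.9%) in control and 46.0% (45.3% to 46.7%) in CKO. H2-Eb2 was not analysed here.

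Measured genes of the class II region on chromosome 17 spanned 225 kb from H2-DMa to H2-Ea-ps in the RefSeq gene positions. The 8 class II genes in it had a median log2 ratio of 2.67. Between H2-DMb1 and H2-Ob lie Psmb9, Tap1, Psmb8 and Tap2, which cut and transport peptides for class I. These 4 were all at least 2-fold higher, with log2 ratios from 1.15 (Tap2) to 2.09 (Psmb8). Brd2, a chromatin reader gene that overlaps the start of the region, had a log2 ratio of 0.14, with 5617 and 9274 reads. The 15 genes measured within 200 kb of the region, all on the H2-DMa side, had a median of 0.18 and ranged from -0.77 (H2-Ke6) to 1.37 (H2-K2). Of these, 2 were at least 2-fold higher, the class I genes H2-K1 and H2-K2, against 13.4% of all genes. The genes of the region and the 200 kb range were chosen after the data were seen.

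**Figure D4:**
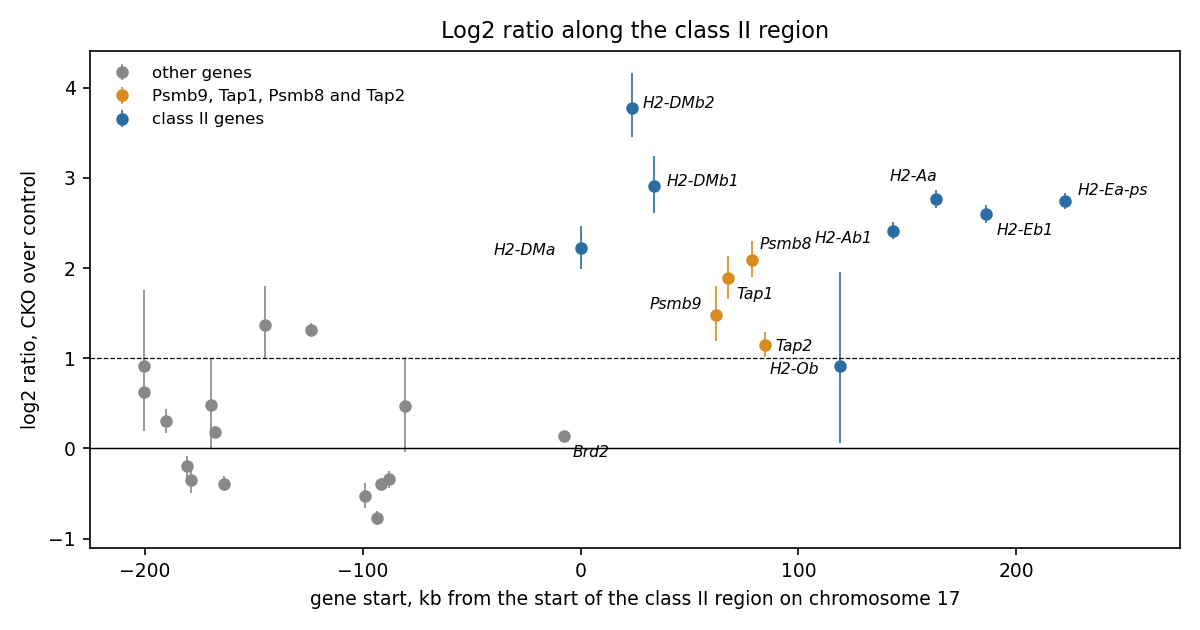
Log2 ratio of CKO over control for genes of the class II region and its flank against distance of the gene start in kb from the start of the region; bars are 95% counting intervals, blue marks class II genes, orange Psmb9, Tap1, Psmb8 and Tap2, and grey all other genes, Tapbp, H2-K1 and H2-K2 among them, and the dashed line marks 2-fold. Brd2, next to H2-DMa, lies at 0.14, and H2-Ob at 0.92 has the widest interval of the class II genes.

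The factors that hold Ciita at the promoter stood near the median of all genes. Of the 7 RFX, NF-Y and CREB genes, 0 were at least 2-fold higher or lower, against 13.4% and 5.35% of all genes. A count of 0 in so few genes says little by itself. The median log2 ratio of the 7 was 0.0037. It was 0.42 with equal totals and 0.59 in the values as deposited, where all genes stood at 0.44 and 0.57. Creb1 had the highest at 0.34, with 1305 reads in control and 2473 in CKO. Rfxank, an RFX subunit, had the lowest at -0.25, with 633 and 800 reads, and 0.17 with equal totals. Nfyc, with the most reads of these (2147 and 2898), stood at -0.15, or 0.27 with equal totals. Ciita, in contrast, was at 2.38.

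The promoter letters were also counted across all genes. Of 12932 tested genes with a promoter window, 1711 (13.2%) were at least 2-fold higher. Of the 110 that held GCAAC and ATTGG at the class II spacing, 12 (10.9%) were, with a median log2 ratio of -0.015. Without H2-Aa, H2-Eb1 and H2-Ob, 10 of 107 were (9.35%).

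Ciita is switched on by interferon-gamma through Jak kinases and Irf1, and by myeloid and lymphoid factors at its other promoters. Of the 7 measured genes of the interferon-gamma input, 4 were at least 2-fold higher, against 13.4% of all genes. The median of the 7 was 1.08. This median was 0.47 when no floor was subtracted under the median gene ratio, and 0.74 over genes with at least 50 scaled reads. The count past 2-fold was 3 with no floor subtracted under the median gene ratio, and 3 with a pseudocount of 10. Irf1 was highest at 1.70, with 465 and 2263 reads. Jak1, lowest in log2 ratio and most abundant by reads, had 5692 and 8536 reads, and the interval of its fold was 0.967 to 1.03, or 1.29 to 1.38 with equal totals. Ifngr1 (1.08) and the feedback inhibitor Socs1 (1.51, from 8 and 37 reads), named after their values were seen, were also past 2-fold. Socs1 fell to 0.47 with no floor subtracted under the median gene ratio. It passed the minimum of 10 scaled reads only through CKO, so the filter fixed its direction. Ifng was not analysed here.

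Of the 5 measured myeloid and lymphoid inputs, 3 were at least 2-fold higher, against 13.4% of all genes, and the median was 1.43. Irf4 was highest at 2.94, with 20 and 240 reads, and at 1.83 with no floor subtracted under the median gene ratio. Irf8, the most abundant over both libraries, had 274 and 1113 reads, 2.71-fold higher (2.37 to 3.10). Prdm1, a repressor of Ciita in plasma cells, was lowest at -0.83, with 118 and 99 reads, and at -0.029 in the values as deposited. The third gene past 2-fold, named after its value was seen, was Spi1 at 1.98. Pax5, the B cell activator of Ciita, was not analysed here.

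The proteases that feed class II split by gene. Of 8 endosomal processing genes, 2 were at least 2-fold higher and 0 lower, against 13.4% and 5.35% of all genes, with a median of 0.28. With equal totals, against 21.9% of all genes, or in the values as deposited, 3 were at least 2-fold higher. Whether these counts differ from the shares was not tested. Ctss, cathepsin S, which makes the last cut of the invariant chain in antigen presenting cells, had 264 reads in control and 4495 in CKO, 11.4-fold higher (10.02 to 12.9). It made up 9.19% (8.15% to 10.3%) of the reads of Ctss and Cd74 in control and 15.8% (15.4% to 16.2%) in CKO. The other gene past 2-fold in the main scaling, named after its value was seen, was Ctse, at 2.45 from 19 and 162 reads. Ctse stood at 1.41 with no floor subtracted under the median gene ratio. Ctsd, the most abundant over both libraries, had a log2 ratio of 0.40, with 23911 and 47190 reads. Ctsh was lowest at -0.53, with 8005 and 8303 reads, and at 0.055 in the values as deposited.

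Class II turnover is set by the ubiquitin ligases March1 and March8, and Cd83 protects class II from March1. Of these 3 genes Cd83 was highest, at 1.96 from 40 and 238 reads, and alone past 2-fold, against 13.4% of all genes. March8 was lowest and most abundant, with 7804 and 8471 reads, at -0.47, which changed sign to 0.12 in the values as deposited. The median of the 3 was 0.43, that of March1.

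The list of costimulation genes also holds the receptor Cd40 and the coinhibitory ligand Cd274. Of its 7 genes 5 were measured, with a median of 0.77. At least 2-fold higher were 2, against 13.4% of all genes, or 4 with equal totals, against 21.9%. The median was 1.19 with equal totals, 1.23 with the median log2 ratio set to 0 and 1.25 with the column minimum as floor. In the latter pair of settings Cd80 fell below the minimum of 10 scaled reads, so the rise came from its loss from the list. Cd86, which binds CD28 on T cells, was highest at 1.78, with 45 and 235 reads. The other in the main scaling was Cd40 at 1.74, and Cd40 and Cd274 were named after their values were seen. Icosl, the most abundant, stood at 0.62 with 248 and 571 reads. Cd80 was lowest, with 7 and 15 reads and a fold of 1.43 (0.548 to 4.14), so a difference was not detectable at this depth. Pdcd1lg2 and Tnfsf4 were not analysed here.

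The T cell receptors of class II rested on few reads. Cd4, the coreceptor, had 17 reads in control and 86 in CKO, 3.37-fold higher (1.99 to 6.05). Lag3, an inhibitory receptor, had 5 and 25 reads, 3.33-fold higher (1.25 to 11.1). With no floor subtracted under the median gene ratio, 0 of these 2 passed 2-fold, and their median fell from 1.63 to 0.60.

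Surface Cd74 is also a receptor for the cytokine Mif and its homolog Ddt, and signals with Cd44 or chemokine receptors. Of the 4 measured genes 1 was at least 2-fold higher, against 13.4% of all genes, and the median was 0.35. With equal totals 2 were, against 21.9% of all genes. Cd44 had 56 and 1303 reads, 15.5-fold higher (11.9 to 20.7). Mif, the most abundant over both libraries, stood at -0.20 from 4497 and 5855 reads, or 0.21 with equal totals. Ddt was lowest at -0.81, with 4591 and 3938 reads. Cxcr2 was not analysed here.

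Class I genes present peptides from the cytosol. Of 9 genes, 7 were at least 2-fold higher, against 13.4% of all genes. All 9 were with equal totals, against 21.9% of all genes, or in the values as deposited. Past 4-fold were 2 genes, against 4.29% of all genes. This count was 0 with no floor under the median gene ratio and 4 in the values as deposited. The median was 1.48, against 2.60 for the classical class II chains. Nlrc5, the class I counterpart of Ciita, was highest at 2.16, with 89 and 602 reads. It made up 42.6% (35.8% to 49.6%) of the reads of Nlrc5 and Ciita in control and 38.9% (36.5% to 41.4%) in CKO, intervals that overlapped. B2m, the most abundant, had 6418 and 28598 reads, 2.97-fold higher (2.89 to 3.05). Tapbp was lowest at 0.62, with 2464 and 5693 reads. B2m made up 87.7% (87.0% to 88.5%) of the reads of B2m and H2-Aa in control and 75.8% (75.3% to 76.2%) in CKO.

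**Figure D5:**
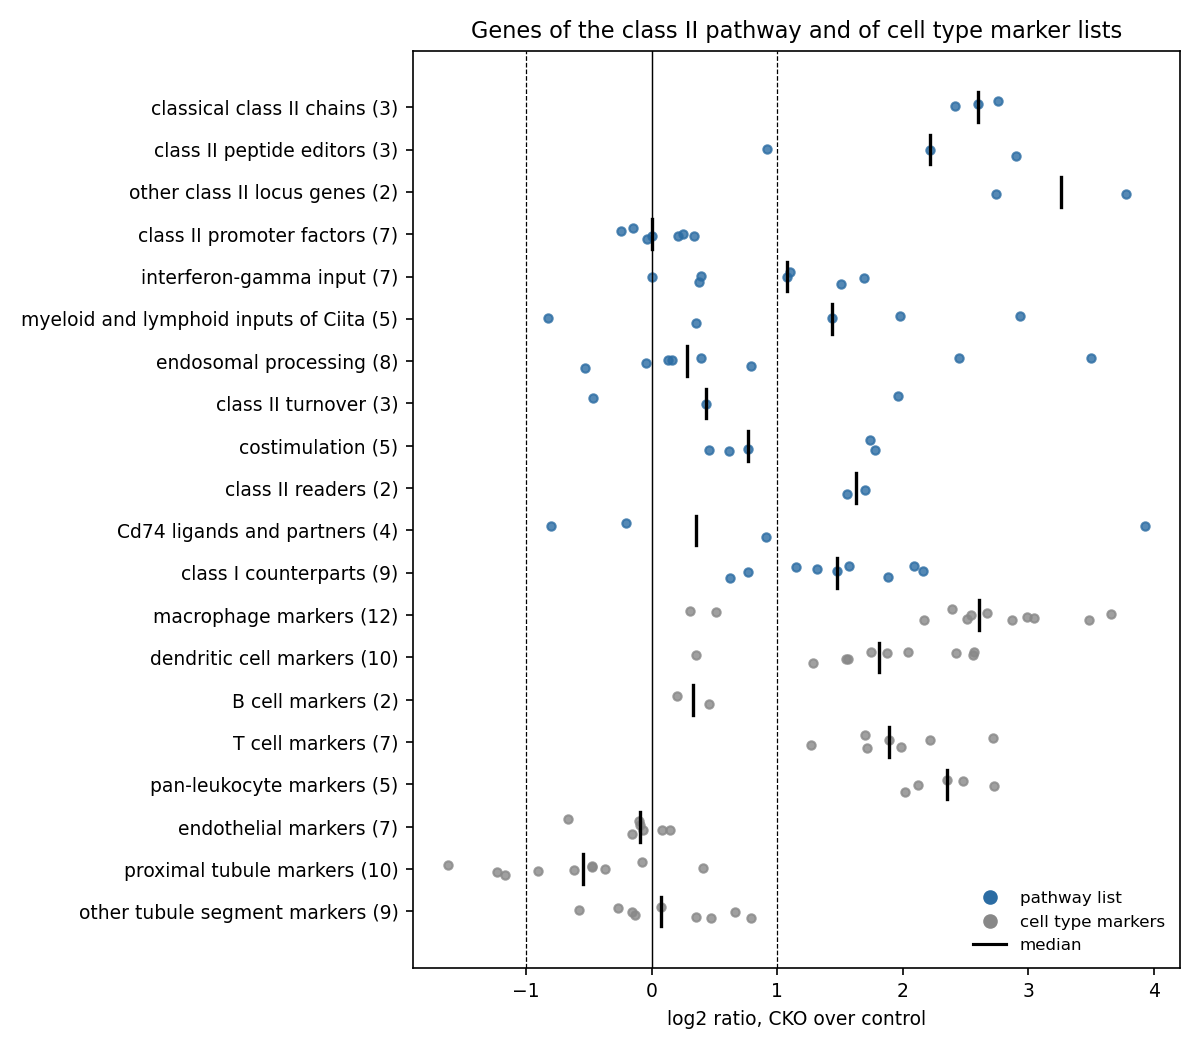
Log2 ratio of CKO over control for each tested gene of the class II pathway lists (blue) and cell type marker lists (grey), with the number of tested genes in brackets and the list median as a black line; dashed lines mark 2-fold. Class II promoter factors centre on 0, macrophage markers have a median of 2.61, and proximal tubule markers a median of -0.55, which became 0.035 in the values as deposited.

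Most macrophage and dendritic cell markers were higher in the same library. Of 12 macrophage markers, 10 passed 2-fold and the same 10 passed 4-fold, against 13.4% and 4.29% of all genes, with a median of 2.61. With no floor under the median gene ratio 9 passed 4-fold. They summed to 4317 reads in control and 28111 in CKO. Lyz2, the highest and the most abundant over both libraries, had 518 and 9836 reads, 12.7-fold higher (11.6 to 13.9). Csf1r, named after its values were seen, had the most reads in control, 2244 of the 4317, and 4803 in CKO, a log2 ratio of 0.51. No listed marker of macrophages was at 0 in either library, but no gene could be, because only the column minimum minus 1 was subtracted. The part of these cells in the class II difference was not tested.

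Of 10 dendritic cell markers, 9 were at least 2-fold higher, against 13.4% of all genes, with a median of 1.81. They summed to 513 and 1788 reads. Flt3, Xcr1 and Ccr7 passed the minimum of 10 scaled reads only through CKO, so the filter fixed their direction. With no floor subtracted under the median gene ratio, 3 of the 10 were at least 2-fold higher, and the median was 0.88. Itgax, which macrophages share, was highest at 2.57, with 56 and 507 reads. Zbtb46, which is also listed among the inputs of Ciita and is expressed in endothelium, was lowest at 0.35 and the most abundant, with 345 and 660 reads. Ccr7 had 2 reads in control and 17 in CKO, a ratio of 5.67 (1.35 to 50.6).

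B cell markers were measured for 2 of 9 genes, and the others, among them Ms4a1, were not analysed here. Cr2, the most abundant, had 27 and 56 reads, a fold of 1.38 (0.859 to 2.28). Cd79b had 23 and 40 reads, a fold of 1.16 (0.678 to 2.03). Both intervals include 1 in the main scaling. With equal totals the interval of Cr2 was 1.15 to 3.04, above 1, and that of Cd79b was 0.906 to 2.71. The list median was 0.33, or 0.74 with equal totals. The B cell sum went from 50 to 96 reads, where H2-Ob went from 14 to 41.

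All 7 measured T cell markers were at least 2-fold higher, against 13.4% of all genes, with a median of 1.89 and sums of 86 and 507 reads. Only 2 of them stayed past 2-fold with no floor subtracted under the median gene ratio, where the median was 0.69. Lck, the most abundant, had 28 and 160 reads, and Cd2 was lowest at 1.27. Cd5 had 3 reads in control and 38 in CKO, a ratio of 8.44 (2.68 to 42.8). Cd4 counts in this list and among the class II receptors. All 5 pan-leukocyte markers were at least 4-fold higher, against 4.29% of all genes, or 3 of 5 with no floor under the median gene ratio. Their median was 2.35, and they summed to 786 and 5681 reads. Cd53 was highest at 2.73, and Laptm5 was lowest at 2.02 and the most abundant, with 240 and 1462 reads.

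Of all genes, 13.4% were at least 2-fold higher, or 21.9% with equal totals, and 5.35% were at least 2-fold lower. Endothelial markers had a median of -0.095, or 0.32 with equal totals, with 0 of 7 past 2-fold. Kdr was lowest at -0.67 and Emcn highest at 0.14, and Plvap, the most abundant, had 3854 and 5411 reads. Of 10 proximal tubule markers 3 were past 2-fold in the direction of control, but 1 with equal totals or in the values as deposited. The median was -0.55, or 0.035 in the values as deposited. Slc22a6, an organic anion transporter, was lowest at -1.62, and Slc5a12 highest at 0.41. Slc27a2, the most abundant, had 157696 and 100638 reads. Markers of other tubule segments had a median of 0.078, with 0 of 9 past 2-fold. With equal totals the median was 0.50 and 2 were at least 2-fold higher, and in the values as deposited it was 0.66 and 3 were. Calb1 was lowest at -0.58, or 0.0071 in the values as deposited, Aqp2 was highest at 0.79, and Umod, the most abundant, had 90047 and 187056 reads.

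Class II reads were also set against marker sums within each library. There were 7.32 class II reads (6.79 to 7.90) per read of the pan-leukocyte markers in control and 9.18 (8.93 to 9.43) in CKO, 1.25 times as many. Per macrophage marker read there were 1.33 (1.28 to 1.39) and 1.85 (1.83 to 1.88), 1.39 times as many. The direction of this difference rested on Csf1r. Without it, an alternative chosen after the data were seen, there were 2.78 (2.64 to 2.92) and 2.24 (2.20 to 2.27), 0.806 times as many. Per T cell marker read there were 66.9 (54.1 to 83.8) and 102.8 (94.2 to 112.4).

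Per dendritic cell marker read there were 11.2 (10.2 to 12.3) and 29.2 (27.8 to 30.6), 2.60 times as many, but 1.35 times without Zbtb46. Per B cell marker read there were 115.1 (87.2 to 155.2) and 543.0 (444.6 to 670.5), 4.72 times as many. Against endothelial markers the ratio went from 0.398 to 2.63, against proximal tubule markers from 0.00951 to 0.107, and against other tubule segments from 0.0379 to 0.186.

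Scaled CKO reads reached 1000 in 5913 genes. Among these, the 5 non-members with a log2 ratio nearest to the 2.61 of Cd74 were of mixed kinds. They were Golm1 at 2.62, the matrix gene Mgp at 2.63, the small heat shock gene Hspb1 at 2.64, the tubular calcium channel Trpv5 at 2.59 and the collagen gene Col1a1 at 2.65. Likeness here is distance in log2 ratio across 2 libraries.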

How the data were processed

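RNA from whole kidney was made into TruSeq stranded mRNA libraries, 1 per group. The submitters' processing notes name STAR 2.7.3a, HTSeq, DESeq2, edgeR, Cufflinks 2.2.1, FastQC and the build mm10. The authors deposited normalized counts as whole numbers, recorded here as a score because their lowest values were 35 and 51 and their totals differed. No source states a constant in each column, and its removal rests on these lowest values. The column minimum minus 1 (34 and 50) was subtracted, CKO reads were multiplied by the median gene ratio of control to CKO (0.667), and log2((CKO + 1)/(control + 1)) was taken. A gene was tested where either library reached 10 scaled reads, and calls were made at 2-fold. No p-value was computed.

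Named genes were the members, the other class II, Ciita and receptor genes, the highest, lowest and most abundant gene of each list, genes with 3 or fewer reads, Zc3h12b and the 5 genes nearest Cd74. Most abundant means the highest sum of control and scaled CKO reads. Some genes under this rule are not reported here. Older symbols were matched by gene ID through RefSeq. H2-Ea and H2-Ea-ps share a gene ID and were counted once. Exons and transcripts came from GENCODE M21. The members and lists were chosen with earlier results of these data known. Alternatives were other scalings, floors, pseudocounts, thresholds, minimums, lengths and marker sums. The steps were tested on simulated Poisson counts with known floors and 200 genes changed 4-fold. That simulation could not check whether the deposited values hold a floor, nor any spread beyond counting error. The work was done in Python 3.11.15 with numpy 2.4.6, pandas 2.3.3, scipy 1.17.1 and matplotlib 3.10.9. Protein sequences were not used here.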

Additional observations from a re-analysis of the deposited data

How the results depend on the processing

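No paired analysis was possible because only 1 library stands in each group. Each of the 8 measured members kept a log2 ratio above 0 under all 8 changes of scaling, floor and pseudocount. H2-Ob ranged from 0.34 to 1.32, and Cd74 from 2.59 to 3.18. The members' median log2 ratio was 2.93 with equal totals and 3.03 in the values as deposited, and between 2.46 and 2.54 in the other settings. The number of members at least 2-fold higher was 8 with equal totals and 7 in every other setting run at this threshold. At a threshold of 1.5-fold 8 members passed. Without subtraction of a floor the class II share was 0.0152% in control and 0.118% in CKO.

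The quotient of class II reads per marker read, CKO over control, became 1.88 for macrophage, 1.35 for dendritic cell, 10.4 for proximal tubule and 6.06 for other tubule segment markers without the most abundant marker of each list over both libraries, against 1.39, 2.60, 11.2 and 4.92 with all markers. Leaving out the most abundant marker in control, an alternative chosen after the data were seen, reversed the macrophage quotient to 0.806 (Csf1r left out) and gave the same 1.35, 10.4 and 6.06 for the other 3 lists. No list median of at least 1 in size changed sign. With equal totals all 22 list medians rose by 0.41 to 0.42, and 18 moved past the counting interval of their middle genes. Which lists did so depended on the reads of those genes. Several medians were lower when no floor was subtracted and the median gene ratio was used. The T cell median was then 0.69, the dendritic cell median 0.88, that of the class II receptors of T cells 0.60 and that of the interferon-gamma input 0.47. With at least 50 scaled reads the interferon-gamma input was at 0.74. The costimulation median rose to between 1.19 and 1.25 in 5 settings. With the median log2 ratio set to 0, the column minimum as floor or at least 50 scaled reads, Cd80 had dropped out of this list. The counts past 2-fold in each list were rerun under the 8 changes, chosen after the data were seen. With no floor under the median gene ratio they fell to 2 of 7 T cell markers, 3 of 10 dendritic cell markers and 0 of 2 class II receptors of T cells. The interferon-gamma input fell to 3 of 7 there, and also with a pseudocount of 10. Counts past 4-fold, and intervals with equal totals, were added likewise, and the 4-fold count stayed at 7 for the members. No B cell marker had 50 scaled reads, so that setting gave no value. Without a floor H2-Ob per kb was at 3.64% of H2-Aa in control and 0.699% in CKO. With the longest annotated transcript as length, H2-Ab1 stood at 284% of H2-Aa per kb in control and 223% in CKO. Depth limits H2-Ob, Lag3, Cd80 and the lymphocyte markers.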
